A study of Saccharomyces cerevisiae with 4 samples.

Results

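The transcripts described here encode the proteins of the small (40S) subunit of the yeast ribosome: RPS0A to RPS31 and ASC1, 57 genes taken by systematic name. Of these, 20 genes held 25 of the 1892 positions that the authors listed as high-confidence sites of 5-formylcytidine (f5C). The treated group consisted of 2 libraries of fragmented poly(A)+ RNA from Saccharomyces cerevisiae (budding yeast). This RNA was exposed to 0.9 M pyridine borane with 0.6 M NaOAc at 37 °C and pH 5.2 for 24 h. The input group consisted of 2 libraries of the same kind of RNA without the reagent. Per the labels' protocols, a clone picked from a plate was cultured overnight at 28 °C in YPD, a rich medium. The labels name neither strain nor genotype, and nothing says that replicates 1 and 2 were separate cultures, so the spread between them may be technical.

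The small subunit decodes mRNA. Its head, body and platform form the channel through which the mRNA passes, and most of its proteins sit on the outer face of the ribosomal RNA. In yeast most of these proteins are encoded by a pair of genes, copy A and copy B, left from an ancient genome duplication, and the copies often share long stretches of nearly identical sequence. f5C is an oxidation product of 5-methylcytidine. Pyridine borane reduces it to dihydrouridine, which is copied as U, so that a modified cytidine gives mutated reads in treated RNA and normal reads in input RNA. The level of a site is used below for the percentage of covering reads that were mutated in treated RNA, averaged over both treated libraries. The table lists no position under 7.5% in either treated library, so lower levels are not seen here. Levels were not corrected for the yield of the reaction.

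The genes with a site included RPS0A, RPS0B, RPS3, RPS4A, RPS4B, RPS9A, RPS12, RPS13, RPS16A, RPS19A, RPS20, RPS21A, RPS25A, RPS25B, RPS26A and ASC1. The share of genes with a site was 35.1% (20 of 57), against 20.8% over all nuclear protein-coding genes (1251 of 6002). Coverage differed as well: the listed sites in small subunit transcripts had a median of 5275 treated reads (both libraries summed), against 801 over the whole table, and its part in the share was not tested. In bulk RNA, fewer cells and less RNA per cell cannot be told apart in such coverage. Those without a listed site included RPS1A, RPS1B, RPS2, RPS6A, RPS6B, RPS7A, RPS7B, RPS9B, RPS10A, RPS10B, RPS11A, RPS11B, RPS14A, RPS14B, RPS15, RPS16B, RPS18A, RPS18B, RPS19B, RPS21B, RPS22A, RPS22B, RPS23A, RPS23B, RPS24A, RPS24B, RPS26B, RPS27A, RPS27B, RPS28A, RPS28B, RPS29A, RPS29B, RPS30A, RPS30B and RPS31. The coverage of the 37 transcripts without a site was not analysed here, so a missing site does not show a missing modification.

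The 25 sites were covered by 98 to 14516 reads in treated replicate 1 and 68 to 10170 in replicate 2, and by 93 to 12449 and 62 to 10508 reads in the corresponding inputs. At 20 of the 25 sites every library had at least 1000 reads. All 25 sites were higher in treated than in input RNA by Fisher exact test on summed reads (largest adjusted p = 1.64e-10), as were 100% of the sites in the table. The authors selected the sites on these libraries, so this count describes the list only. Plus-strand transcripts held 10 of the sites and minus-strand transcripts 15, spread over 11 chromosomes.

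RPS25A and RPS25B encode a protein of the subunit head that, in yeast, is needed for initiation at certain viral internal ribosome entry sites, and they held the highest levels in the table, ranks 1 and 2 of 1892. In RPS25A (YGR027C) the site at position 534477 of chromosome VII, on the minus strand, had 393 mutated of 398 covering reads in treated replicate 1 and 275 of 277 in treated replicate 2, against 2 of 386 and 3 of 321 in input replicates 1 and 2. Only 5 and 2 treated reads there were unmutated. In RPS25B (YLR333C) the site at position 795916 of chromosome XII, also on the minus strand, had 69 of 98 and 60 of 68 mutated reads in treated replicates 1 and 2, against 2 of 93 and 2 of 62 in input. In percentages RPS25A reached 98.7% and 99.3% in the treated libraries, and RPS25B 70.4% and 88.2%.

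Both treated values of RPS25A lay above both treated values of RPS25B. In both copies the treated fraction lay above the input fraction of the same replicate. This holds at every site of the table, where the lowest treated over input ratio is 20.2, so it does not set the pair apart. The level was 99.0% ± 0.378 in RPS25A and 79.3% ± 12.6 in RPS25B (SD, n = 2 each), a difference of 19.7 percentage points that came to 28.3 points in replicate 1 and 11.0 points in replicate 2. On summed reads the difference was 21.3 points, with a 95% interval of 15.5 to 28.2 points for counting error. This pair was singled out with its levels known, so these values are a description and carry no test. The treated replicates of RPS25B themselves differed by 17.8 points (exact p = 0.00770, Fisher, unadjusted; 2.75% of all listed sites passed an unadjusted 0.05, and 0 passed after adjustment). RPS25A was the more deeply covered copy, by 4.07 times in treated and 4.56 times in input RNA at these positions. The lowest fraction and mutated count and the largest q-value (0.00993) found in the table are filters that the deposited values imply. At the coverage of RPS25B these alone let a site pass from 13.3% in replicate 1 and from 19.1% in replicate 2. The table also holds no treated over input ratio under 20.2 in either replicate. At the input fractions of RPS25B that limit is the stricter one, and it was not included in these values.

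By the mean of both libraries, the input fractions of this pair were also ranks 1 and 2 of the table. They were 0.518% and 0.935% in RPS25A, and 2.15% and 3.23% in RPS25B, in replicates 1 and 2, all from 2 or 3 mutated reads. The table holds no treated over input ratio under 20.2 in either replicate. Sites near the lowest listed treated fraction could therefore not hold input fractions this high and be listed. The selection of sites may thus have a part in the input ranks of the pair, which was not tested. For RPS25B the authors' deposited table gives treated over input ratios of 32.7 and 27.4, the lowest finite ratio among the 25 sites in each replicate, and for RPS25A it gives 191 and 106. A low ratio thus stood beside a very high treated level in RPS25B. The next level in the table after this pair was 48.8%, in VHT1, and among small subunit transcripts the next was 10.4%, in RPS19A.

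**Figure D1:**
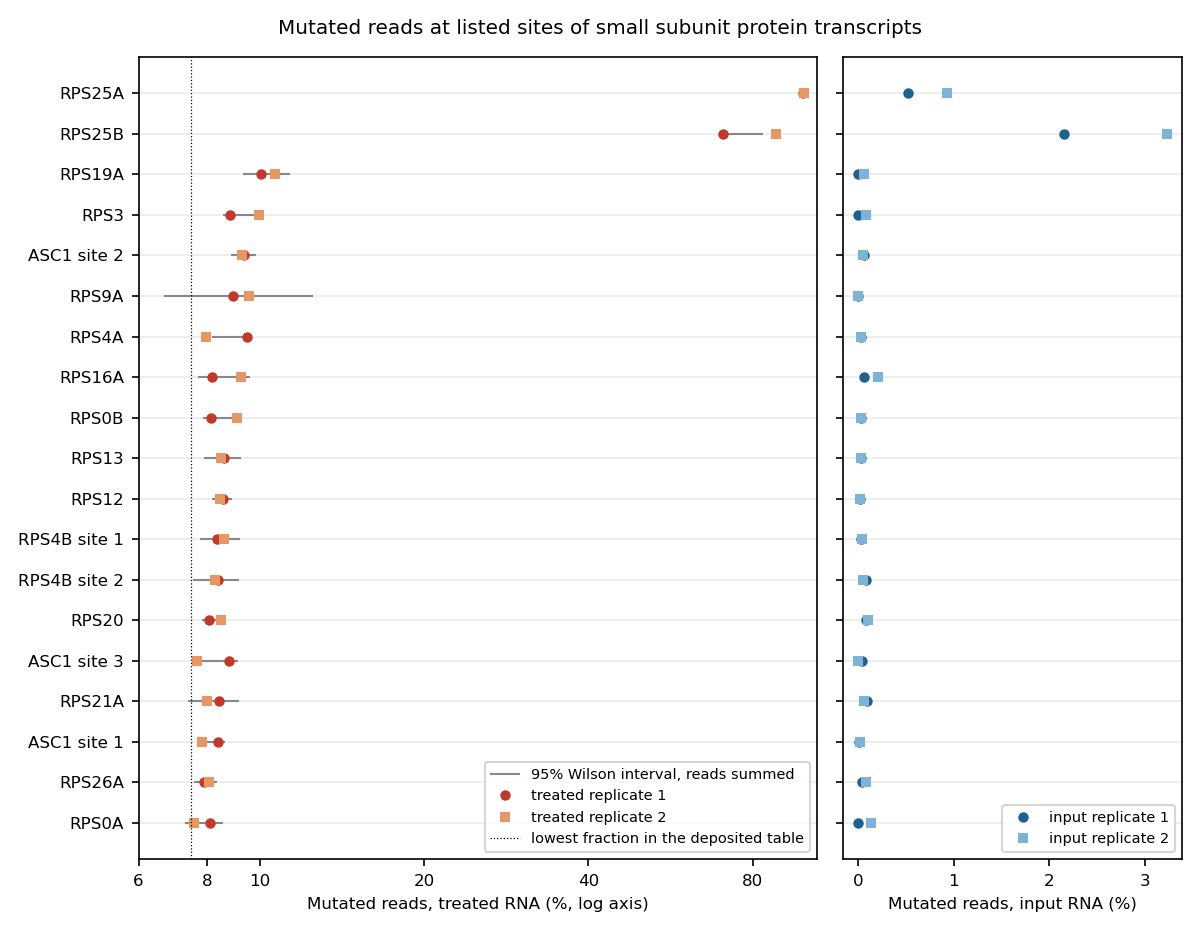
Mutated reads (%) at 19 of the 25 listed sites, in treated RNA on a log axis (left) and in input RNA on a linear axis (right). Points and squares are replicates 1 and 2, grey bars are Wilson 95% intervals of the summed treated reads, and the dotted line is the lowest fraction in the table, 7.5%. By the mean of both treated libraries, which is not drawn, RPS25A and RPS25B had 99.0% and 79.3%. The means of the other sites lay between 7.86% and 10.4%. The inputs of RPS25B, at 2.15% and 3.23%, are the highest.

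The other 23 sites formed a narrow band just above the lowest listed fraction. Their levels ran from 7.86% in RPS0A to 10.4% in RPS19A, with a median of 8.55%, and 22 of them lay under 10%. Over all 25 sites the median was 8.61%, against 9.002% over all 1892 listed sites. The quartiles of the 25 were 8.27% and 8.96%, against 8.35% and 10.1% over the table. Levels in the table were higher at low coverage. Under 1000 treated reads the median was 9.50% in 1105 other sites and 8.93% in the 2 small subunit sites outside RPS25. Few reads can also raise the lowest fraction that passes, and the part of this was not tested. Among sites with at least 5000 treated reads the median was 8.54% in 14 small subunit sites and 8.41% in 138 other sites. At 1000 to 5000 reads it was 8.33% in 7 small subunit sites and 8.61% in 624 other sites. The order of the medians thus differed between the deeper classes of coverage.

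**Figure D2:**
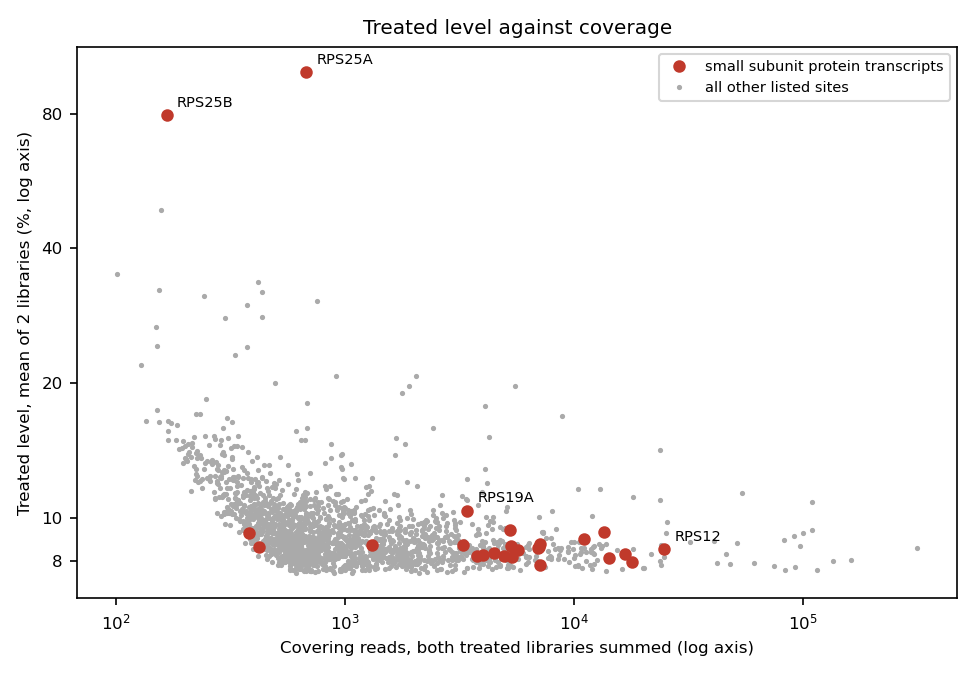
Treated level (%, mean of both treated libraries) against summed treated coverage, both on log axes, for the small subunit transcripts (red) and the other listed sites (grey). Apart from RPS25A, at 99.0% and 675 reads, and RPS25B, at 79.3% and 166 reads, the red points lie between 7.86% and 10.4%, with RPS12 the deepest at 24686 reads.

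Proteins of the head of the subunit, which swivels as tRNA and mRNA move, were encoded by 11 of the 20 genes with a site. This was 11 of the 23 head genes, against 9 of the 34 genes of the body and platform. The grouping was made with the sites known and was given no test. Without RPS25 the median level was 8.65% over 11 head sites and 8.52% over 12 sites of the body and platform.

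Among the head proteins, RPS19A encodes a protein whose human counterpart is mutated in Diamond-Blackfan anaemia. Its site (YOL121C, chromosome XV, position 92393, minus strand) had 206 of 2045 and 145 of 1359 mutated reads in treated replicates 1 and 2, against 0 of 1800 and 1 of 1490 in input. The level was 10.4% ± 0.422 (SD, n = 2; Wilson interval of the summed reads 9.33% to 11.4%), and RPS19A was the only one of the 23 sites with a level above 10%. RPS3 lines the mRNA entry channel. Its site (YNL178W, chromosome XIV, position 302887, plus strand) had 8.83% and 9.97% mutated reads in treated RNA, against 0% and 0.0807% in input. Its Wilson interval of 8.55% to 10.1% overlapped that of RPS19A.

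RPS12, a protein of the beak, held the deepest of the 25 sites, at chromosome XV position 1028344. It had 1246 of 14516 and 861 of 10170 mutated reads in treated replicates 1 and 2, against 3 of 12449 and 2 of 10508 in input. Its level of 8.52% ± 0.0831 (SD, n = 2) had the narrowest Wilson interval among the 23 sites, 8.19% to 8.89%. RPS20, which is ubiquitinated when ribosomes stall, had 8.08% and 8.50% at chromosome VIII position 75521, against 0.0853% and 0.106% in input, from 8 mutated reads in each input library.

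RPS16A encodes a protein whose tail reaches towards the tRNA in the peptidyl site. At chromosome XIII position 552580 it had 160 of 1956 and 121 of 1308 mutated reads in treated RNA, against 1 of 1564 and 3 of 1428 in input. Its mean input fraction of 0.137% was the third highest of the 25, after the RPS25 pair.

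ASC1 (YMR116C) encodes a propeller-shaped protein of the head, the yeast counterpart of RACK1, which acts in signalling and in the handling of collided ribosomes. It held 3 sites on the minus strand of chromosome XIII. In the order of the transcript, site 1 at position 499804 had 701 of 8344 and 460 of 5868 mutated reads in treated replicates 1 and 2, against 1 of 7210 and 1 of 6219 in input. Site 2, at position 499780 and 24 nt further along, had 739 of 7884 and 515 of 5559, against 4 of 6681 and 3 of 5875. Site 3, at position 499488, had 254 of 2888 and 158 of 2059, against 1 of 2556 and 0 of 2196.

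Site 2 of ASC1 was the highest of the 3 in both treated libraries, at 9.37% and 9.26%, while site 1 had 8.40% and 7.84% and site 3 had 8.80% and 7.67%. Site 1 minus site 2 came to -1.20 points (Fisher exact test on summed reads, adjusted p = 0.0117 over the 968 pairs of sites within a gene in the table, of which 7.44% passed). Among the 7 such pairs in small subunit transcripts this was the 1 that passed after adjustment. Sites 2 and 3 differed by 1.08 points (exact p = 0.0370, adjusted p = 0.273), and 15% of the 968 pairs passed without adjustment. In single libraries the difference between sites 1 and 2 no longer passed (adjusted exact p = 0.330 in replicate 1 and 0.115 in replicate 2). Positions 24 nt apart can lie on the same reads, which the test treats as separate.

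In the body of the subunit, RPS4A and RPS4B encode the same protein. The RPS4A site (YJR145C, chromosome X, position 702538, minus strand) had 384 of 4056 and 243 of 3046 mutated reads in treated replicates 1 and 2, against 1 of 3628 and 1 of 3127 in input. RPS4B (YHR203C, minus strand of chromosome VIII) had 281 of 3366 and 201 of 2333 at site 1, position 504987, against 1 of 2874 and 1 of 2278 in input. Its site 2, at position 504546, had 221 of 2638 and 150 of 1813, against 2 of 2316 and 1 of 1944. RPS4A was higher than both RPS4B sites in treated replicate 1, at 9.47%, and lower than both in replicate 2, at 7.98%. That change between replicates was, with RPS25B, 1 of 2 among the 25 sites at an unadjusted 0.05 (exact p = 0.0311, Fisher). The RPS4B sites lay 441 nt apart and had levels of 8.48% and 8.33%.

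**Figure D3:**
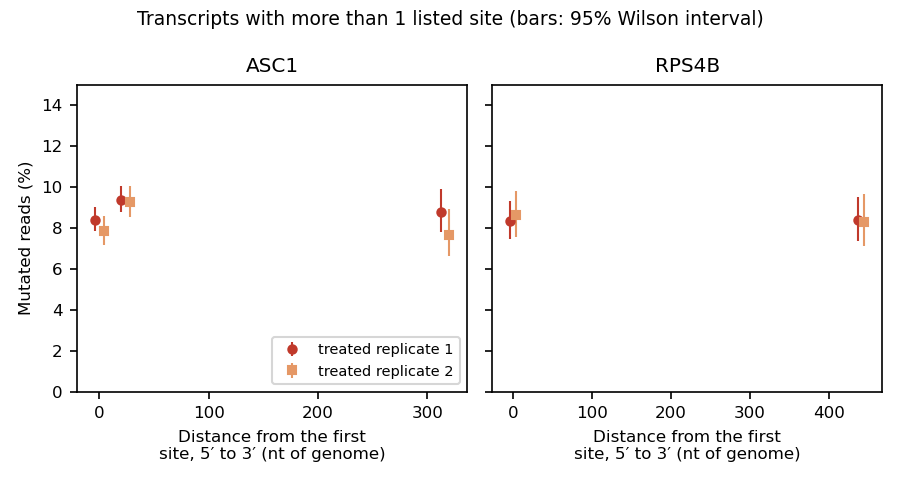
Mutated reads (%) in treated replicates 1 (points) and 2 (squares) at the sites of ASC1 and RPS4B, against the distance in nt of genome from the first site of the transcript. Bars are Wilson 95% intervals. In ASC1 the site 24 nt from the first is the highest in both libraries, and the RPS4B sites, 441 nt apart, have levels of 8.48% and 8.33%.

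RPS9A, whose protein guards decoding accuracy at the entry channel, had the shallowest site after RPS25B. At chromosome XVI position 405578 it had 20 of 224 and 15 of 157 mutated reads in treated RNA, against 0 of 194 and 0 of 146 in input. These zeros bound the input fraction at 0.882%. Its level of 9.24% ± 0.442 (SD, n = 2) carried a Wilson interval of 6.68% to 12.5%, wide enough to hold the levels of all of the 23 sites. The 15 reads of replicate 2 were the fewest that would have passed there. RPS13 had 8.61% and 8.49% in treated RNA at chromosome IV position 580090, against 0.0274% and 0.0334% in input.

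RPS26A lies at the mRNA exit channel and contacts the mRNA upstream of the start codon. At chromosome VII position 148369 it had 849 of 10755 and 570 of 7062 mutated reads in treated RNA, against 4 of 9192 and 6 of 7327 in input. Its level of 7.98% ± 0.125 (SD, n = 2) was the second lowest of the 25, and site 1 of ASC1, at 8.12%, was the next above it. RPS21A, a small protein beside RPS0 on the solvent side, had 8.42% and 8.01% at chromosome XI position 552013, against 0.0978% and 0.0600% in input.

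The RPS0 pair encodes a protein needed for the late maturation of the subunit. The RPS0A site (YGR214W, chromosome VII, position 921217, plus strand) had 339 of 4173 and 220 of 2898 mutated reads in treated replicates 1 and 2, against 0 of 3540 and 4 of 2935 in input. The RPS0B site (YLR048W, chromosome XII, position 243023, plus strand) had 344 of 4231 and 253 of 2784, against 1 of 3449 and 1 of 2787. RPS0A, at 7.86%, was the lowest of the 25 sites. In treated replicate 1 RPS0A had 8.12% and RPS0B 8.13% mutated reads, and in replicate 2 they had 7.59% and 9.09%.

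The comparison of copies asks whether both genes of a pair carried sites of like level. Of the 24 duplicated genes, 4 had a site in both copies (RPS0, RPS4 and RPS25 among them), 6 had a site in copy A alone (including RPS9, RPS16, RPS19, RPS21 and RPS26), none had a site in copy B alone, and 14 had none. Single-copy genes held a site in 6 of 9 cases (RPS3, RPS12, RPS13, RPS20 and ASC1 among them), against 14 of the 48 genes of pairs. Median summed treated coverage at their sites was 12252 reads in single-copy genes, against 3998 in genes of pairs, and its part in these counts was not tested. No test was made of these counts. Where copies are nearly identical, reads may be shared between them or dropped as ambiguous, and the sources used here do not say how such reads were treated.

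Outside RPS25, no difference between copies passed the test. The difference of copy A minus copy B on summed reads was -0.605 points in RPS0 (95% interval -1.51 to 0.302), and 0.493 and 0.371 points for RPS4A against sites 2 and 1 of RPS4B (-0.568 to 1.53 and -0.614 to 1.34). These intervals do not show that the copies were alike. By Fisher exact test 0 of the 4 site pairs outside RPS25 passed, without adjustment or after it. Over the 13 site pairs between genes named as copies A and B in the whole table, RPS25 included, 30.8% passed without adjustment and 23.1% after it. In replicate 2 alone RPS0 also passed without adjustment (exact p = 0.0436). Whether the sites lie at matching positions of the copies was not tested. With 2 libraries a group, an exact permutation test over libraries cannot go below 0.333.

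**Figure D4:**
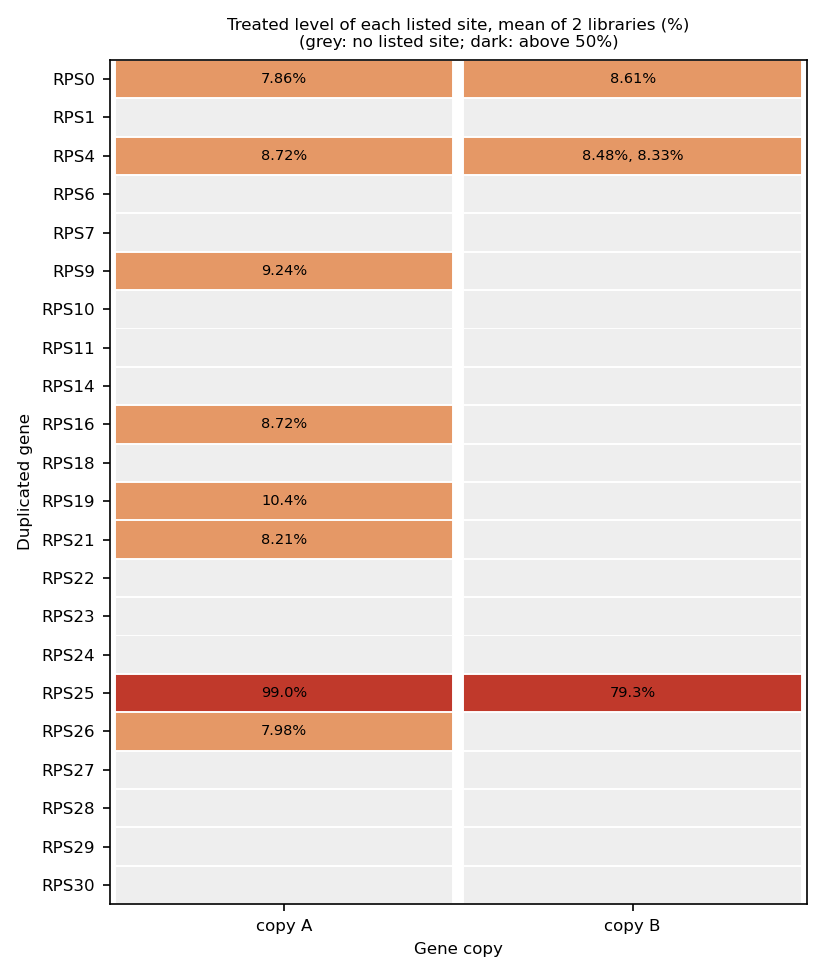
Treated level (%, mean of both treated libraries) of each listed site in copies A and B of 22 of the 24 duplicated small subunit genes. Grey cells hold no listed site and dark cells lie above 50%. RPS0, RPS4 and RPS25 have sites in both copies, and RPS9, RPS16, RPS19, RPS21 and RPS26 have them in copy A only.

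Among the 25 sites the treated replicates of RPS25B were the farthest apart, by 17.8 points. The median absolute difference between treated replicates was 0.532 points over the 25 sites, against 0.870 over all listed sites, and the largest outside the RPS25 pair was 1.49 points, in RPS4A. Replicate 2 was the higher at 10 and the lower at 13 of the 23 sites without RPS25. Two-sided Fisher tests passed for 2 of the 25 sites without adjustment, RPS25B and RPS4A, and for 0 after adjustment over the table.

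Background in untreated RNA was low at the 25 sites apart from the RPS25 pair. Summed over the other 23 sites, 0.0377% and 0.0588% of input reads were mutated in replicates 1 and 2, while summed treated fractions at these sites were 8.59% and 8.45%. The table holds no treated over input ratio under 20.2 in either replicate. A site at such treated fractions could therefore be listed only with a low input fraction. The selection of sites may thus have a part in the low background, which was not tested. Over the whole table the input fractions were 0.0473% and 0.0444%. At 17 of the 25 sites both input libraries held a mutated read, and at 4 sites, that of RPS9A among them, neither did. Over the whole table, which was covered less deeply, 206 of 1892 sites had a mutated read in both inputs and 1212 in neither. The authors' p-values imply a binomial rate of 1.83% in replicate 1 and 1.81% in replicate 2 as the level to exceed, solved from 22 sites in each replicate. RPS25B differed there, since its own input fractions of 2.15% and 3.23% solve its p-values.

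Genes that work on the small subunit were counted in the same way, beside the 20.8% of all nuclear protein-coding genes with a site. Of 24 initiation and other factors that bind it, 9 had a site, 15 sites in all, with a median level of 8.79% and a range of 7.68% to 10.5%. They included TIF1 and TIF2, the paralogs of the initiation helicase, with 2 sites each, and PAB1, the poly(A)-binding protein, with 9.67% ± 1.30 and 7.88% ± 0.330 (SD, n = 2). The highest was RLI1, which recycles ribosomes, with 9.09% and 11.9% in treated RNA, against 0% in both inputs. Of 20 assembly factors of the subunit 2 had a site, the helicase PRP43 with 12.2% and 12.3% and the kinase HRR25 with 10.4% and 8.49%. The PRP43 site had only 123 and 114 treated reads, and few reads can raise the lowest fraction that passes. Among 10 regulators of ribosomal protein genes, IFH1, a coactivator, was the 1 with a site, at 11.6% and 9.41%. The median summed treated coverage was 5275 reads at the small subunit sites, against 1430 in the binding factors and 388 in the assembly factors.

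The small subunit genes, with a site in 20 of 57 and a median level of 8.61%, reached 99.0% and 79.3% in the RPS25 pair. Of the 82 genes for proteins of the large subunit 24 (29.3%) had a site, with 29 sites, a median level of 8.53% and a highest level of 11.97%. No test was made of the difference between the subunits.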

How the data were processed

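Poly(A)+ RNA was measured in 2 treated and 2 input libraries. The deposited table, per the file headers, gives counts of covering and of mutated reads per site and library, a deposited fraction (mutated over covering reads), and per replicate the authors' fold ratio of treated to input, p-value and q-value. The submitters' processing notes name cutadapt and STAR. For genome build, site caller and filters, nothing was given in the sources used here.

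Members, lists and tests were chosen with earlier results of these data known. Fractions were recomputed from the deposited counts. The test was a two-sided Fisher exact test on reads, with Benjamini-Hochberg adjustment over the whole table. A minimum of 10 reads per library and a threshold of 0.05 were used. The test was tried on simulated reads, drawn independently for each site from starting levels far below those of RPS25. Such a simulation does not cover RPS25, sites that share reads, or spread between replicates beyond counting error. Intervals are Wilson 95%, or Newcombe's for differences, and cover counting error only, since no molecular identifiers are stated. An input without mutated reads has a limit of 3 reads over its summed coverage. Titles gave each library's group and number. Symbols came from RefSeq (R64) by systematic name, with 57 of 57 matched. Without a genome, copies could not be paired by aligned position as planned, so each site of copy A was set against each site of copy B. The test of site pairs within a gene was added after seeing the data. A few small subunit genes are not reported here by name, although counts and medians include them. Among the others, every gene with a site is named, and libraries are given in full for the RPS25 pair, genes with several sites, pairs with a site in both copies, and the extremes of level, coverage and input. Alternatives were coverage minimums of 100 and 1000 reads and none, each replicate left out, summed reads, subtraction of input, a Cochran-Mantel-Haenszel test and others given at the end. Python 3.11.15, scipy 1.17.1, statsmodels 0.14.6 and pandas 2.3.3 were used.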

Additional observations from a re-analysis of the deposited data

How the results depend on the processing

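The 9 results were recomputed under 49 alternatives. The median level of the 25 sites was 8.50% at a minimum of 1000 reads and 8.49% to 8.60% with a replicate left out, against 8.61%. Its difference from other sites was -0.399 points, -0.599 to -0.152 with a replicate left out, and turned to 0.00969 points at 1000 reads. That minimum leaves out shallow sites, which had higher levels in the table, and the part of this was not tested. At levels of at least 10%, 3 genes (RPS19A, RPS25A and RPS25B) kept a site, against 20. The sites that differed between treated replicates were 1 at minimums of 100 and 1000 reads, where RPS25B is left out, and 0 after adjustment, against 2. The RPS25 difference ranged from 11.0 to 28.3 points with a replicate left out; the cause was not tested. Site pairs of copies that differed were 1 (RPS25, whose levels were known), and 1 to 2 with a replicate left out, RPS0 being the other in replicate 2. Site pairs within a gene were 1, 0 with either replicate left out, where fewer reads were tested, and 2 without adjustment. Labels give both groups the numbers 1 and 2 without saying that a number marks a shared culture. Between libraries of 1 number, deviations from the group means had a correlation of -0.00502 in coverage (1892 sites) and of 0.117 in mutated fraction (204 sites without RPS25; 0.642 with it). With the replicate number as a block (Cochran-Mantel-Haenszel test), 25 sites were higher in treated RNA and 1 pair within a gene passed, as before. No copy pair outside RPS25 passed. The RPS25 difference was 21.2 points with this block, which remains a description, since its levels were known. Pairing of copies by aligned position was not run for lack of a genome, and summed reads and subtraction of input give no other test of the copies. Depth limits RPS25B and RPS9A most.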
